A study of Mus musculus with 8 samples.

Results

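The genes described here are 41 enzymes and transporters of sugar metabolism in the mouse gallbladder: the glucose transporters and hexokinases, the steps of glycolysis, the enzymes that make and remove fructose 2,6-bisphosphate, lactate dehydrogenase, pyruvate dehydrogenase and its kinases, ketohexokinase of the fructose pathway, the pentose phosphate pathway and the glucose-producing enzymes. They were listed by pathway, with earlier results of these data known, and a probe set was taken for a gene where its annotation gave that single mouse gene symbol, current or older. Of the 41 genes, 37 had such a probe set, 77 probe sets in all, out of 18193 genes and 45101 probe sets on the array. The test covered 35 of the 41 genes (66 probe sets), out of 11719 genes and 22519 probe sets tested in the whole series. Gpi1, Pfkfb1, G6pdx and Eno1 had no matched probe set, Eno2 was too dim to be tested, and Gapdh was measured only by the control probe sets of the array.

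The study compared gallbladders of female B6.V-Lep ob mice, a leptin-deficient obese strain, injected intraperitoneally each day with saline or with leptin (recombinant, mouse; 5 µg for each g of body weight). The mice arrived at 7 weeks of age, were acclimated for 1 week, were treated for 4 weeks and were 12 weeks old, after an overnight fast, when the gallbladders were removed; 12 mice received leptin and 12 received saline. RNA of 3 gallbladders was pooled for each array, which gave 4 saline pools (numbered 1 to 4) and 4 leptin pools (5 to 8) on Affymetrix mouse 430 2.0 arrays. All the mice of both groups carry the leptin defect, so the saline pools are an obese, leptin-deficient control, there was no lean group, and the spread between pools is not that between single animals.

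Glycolysis splits glucose to pyruvate with a net gain of ATP, and it is controlled at the hexokinase, phosphofructokinase and pyruvate kinase steps; fructose enters below phosphofructokinase through ketohexokinase. Pyruvate is then reduced to lactate or oxidised by pyruvate dehydrogenase, which the pyruvate dehydrogenase kinases switch off. The gallbladder is a muscular sac lined by an absorptive epithelium that concentrates bile by active transport of salt, and the neighbouring liver is the main site of the liver-type isozymes and of glucose production in a fasted animal.

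Values are signals, the brightness of a probe set as the authors' software summarised it, on arrays that share a 2% trimmed mean of 250. A signal of 46.0 or less was taken as background. Each gene is read from its brightest probe set, a log2 difference is leptin minus saline on the log2(signal + 8.2) scale with its standard error (SE), and a gene is said to fall or rise where limma's p-value, adjusted by Benjamini-Hochberg over the 22519 probe sets, was under 0.05. Signals of different probe sets are not compared with each other, because each probe set responds differently.

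The members that passed the test were all lower with leptin. Of the 35 genes tested with limma, 8 fell and 0 rose (15 were lower and 2 higher at an unadjusted p under 0.05). The 8 were Pklr, Khk, Pfkfb3, Fbp2, Pdk1, Slc2a2, Pgam1 and Tkt. They made up 22.9% of the members, where 3.98% of all tested genes fell and 4.29% rose. By probe set, 17 of 66 fell and 0 rose, where 3.39% of all tested probe sets fell and 3.54% rose. The estimate was below 0 for 24 members and above 0 for 11, and the median log2 difference was -0.23, against 0.02 for all tested genes. Of the members, 29 lay among the brightest probe sets of the array, above the 75th percentile of mean signal, where 6.01% of 7041 genes fell, 3.78% rose and the median was -0.05. All 4 saline pools exceeded all 4 leptin pools for 10 members (8.58% of all tested genes), and the opposite held for 1 member, Ldhb (8.45% of all tested genes). No member rose under any of the 22 alternative settings of scaling, filter, model, probe set or left-out pool, and the number that fell ran from 2 to 15. With every array centred on its median instead, which moved the median log2 difference of all tested probe sets from 0.04 to -0.21, 406 probe sets of the array rose and 3586 fell in place of 798 and 763, and 15 members fell, with a median of -0.47. The number of members that fell was 4 without saline pool 2 or leptin pool 5, 6 or 8, and 5 without saline pool 4.

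**Figure D1:**
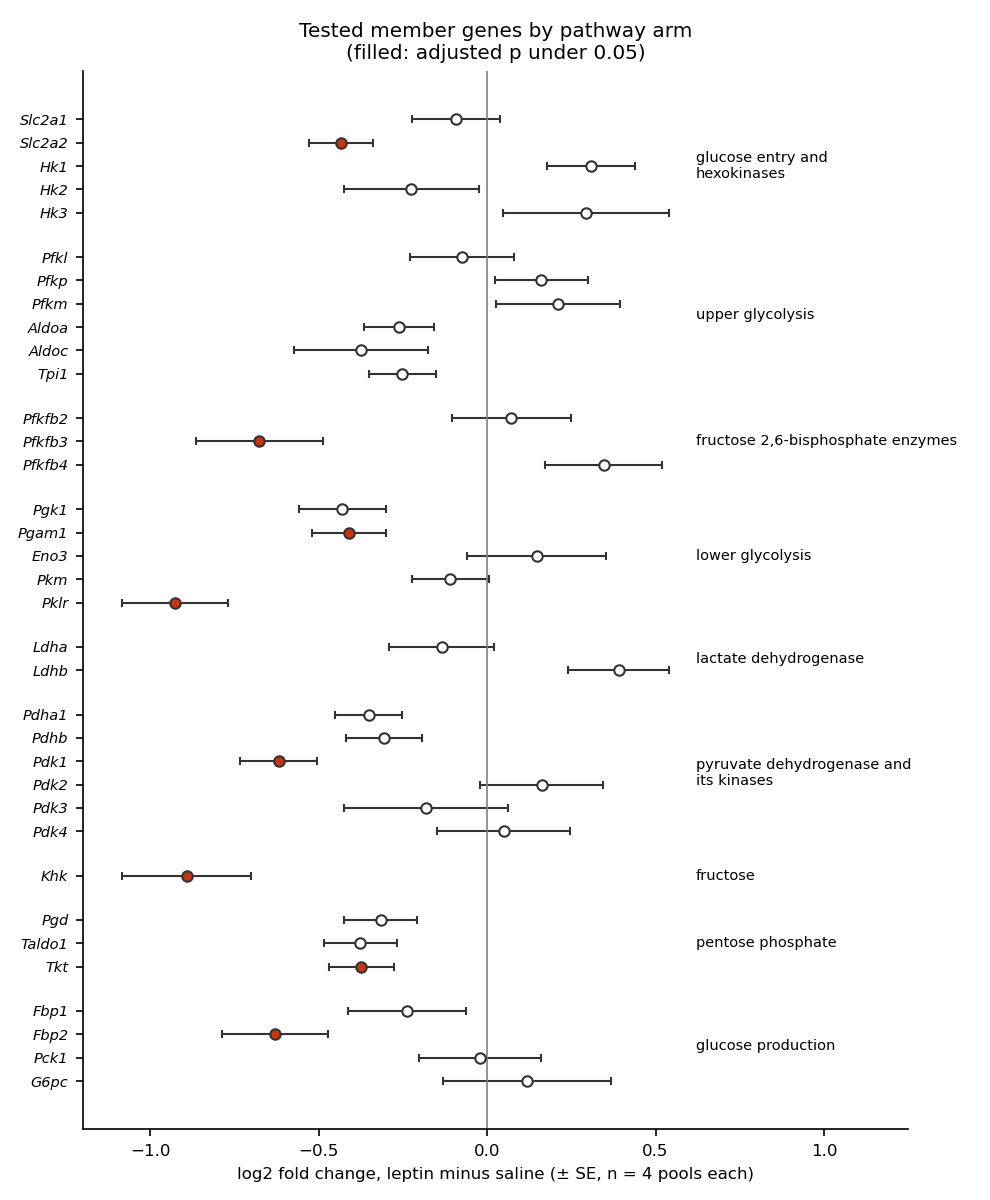
Log2 difference, leptin minus saline, of the 35 tested genes grouped by pathway arm; each point is one gene read from its brightest probe set, the bar is its SE from the fit (4 pools a group), and filled points passed the test. The genes that fell were spread over 7 of the 9 arms, and the lower end of glycolysis and the pentose phosphate genes lay furthest below 0 among the arms with 3 or more genes.

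The gallbladder samples were mixed tissue, so a lower signal from fewer cells of a type and one from less RNA per cell cannot be told apart here. Of the 9 gallbladder epithelium markers, 3 fell (Krt7, Krt8 and Krt18), and the summed signal of the list ran from 40589 to 50333 in the saline pools and from 34216 to 38340 in the leptin pools, without overlap. All 7 leukocyte markers rose, with sums of 2767 to 3594 against 11391 to 12208, as did 3 of 4 neutrophil markers (sums of 424 to 605 against 2176 to 3949) and all 3 tested B and plasma cell markers (sums of 288 to 356 against 2966 to 6608). All 6 tested adipocyte markers had negative log2 differences, with a median of -0.84, and 1 of them fell, Cidec (-2.03); the adipocyte sums overlapped, at 3974 to 15508 with saline and 4049 to 6532 with leptin. Of 6 smooth muscle markers, 1 rose and 0 fell, and 5 were lower by estimate. Their sums overlapped, at 29935 to 39902 with saline and 30305 to 37786 with leptin. The 2 tested pancreas acinar markers and the 1 tested red blood cell marker did not pass the test. Hepatocyte markers were bright in every pool, with sums of 85897 to 135999 in the saline pools and 106265 to 130199 in the leptin pools; these overlapped, 1 of 9 markers changed (Apoa1, which rose), and the other 8 had log2 differences of -0.06 to 0.15. The median signal of an array was 81.8 ± 4.18 (SD, n = 4) with saline and 98.9 ± 5.74 with leptin, and the ratio of 3′ to 5′ actin signal, a measure of RNA integrity, was 1.60 ± 0.0882 and 1.89 ± 0.207. The same ratio for Gapdh was 0.813 ± 0.0409 and 0.818 ± 0.0248. In a two-sided exact permutation test over the pools, p was 0.0571 for the actin ratio and 0.857 for the Gapdh ratio. The part of these differences in the results below was not tested, beyond the fits with the actin ratio or a hepatocyte score as a covariate that are given with them. The score was the mean centred log2 signal of the 9 markers. Apoa1, which rose by 0.70 on the log2 scale, is among them, so the score is not independent of the treatment. The actin ratio is not independent of the treatment either, because every leptin pool except pool 7 exceeded all the saline pools. A fit with the actin ratio as a covariate therefore cannot separate RNA integrity from treatment, and its estimates are not values corrected for RNA integrity.

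Liver-type pyruvate kinase and ketohexokinase, the enzymes at the end of liver glycolysis and the start of fructose breakdown, had the largest falls among the 35 members. Pklr gave signals of 689, 957, 1082 and 742 in saline pools 1 to 4 and of 504, 398, 417 and 467 in leptin pools 5 to 8. The lowest saline pool stood above the highest leptin pool. The mean went from 868 ± 184 to 447 ± 48.1 (SD, n = 4 pools each), a log2 difference of -0.93 (SE 0.16, adjusted p = 0.00403). Its second probe set fell as well, by 0.80 on the log2 scale (adjusted p = 0.0155), and the dimmest of its 3 probe sets, with 1 leptin pool under background, gave -0.95 (adjusted p = 0.183). The muscle and general form of the enzyme, Pkm, lay at 1101 to 1471 with saline and 1090 to 1254 with leptin, and its log2 difference of -0.11 (adjusted p = 0.609) did not pass the test.

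Khk, which phosphorylates fructose, gave 2055, 3617, 3928 and 2870 in the saline pools and 1902, 1585, 1253 and 1852 in the leptin pools. The groups did not overlap, although saline pool 1 was close to leptin pools 5 and 8. The mean went from 3117 ± 836 to 1648 ± 298 (SD, n = 4), which was a log2 difference of -0.89 (SE 0.19, adjusted p = 0.0153). Without saline pool 2 the adjusted p was 0.0511. Both Pklr and Khk were lowest among the saline pools in pool 1, which also had the lowest hepatocyte sum. With the hepatocyte score as a covariate, the log2 differences were -1.02 for Pklr (adjusted p = 0.00036) and -1.04 for Khk (adjusted p = 1.6e-05); with the actin ratio as a covariate they were -1.26 (adjusted p = 0.0059) and -1.44 (adjusted p = 0.0029).

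**Figure D2:**
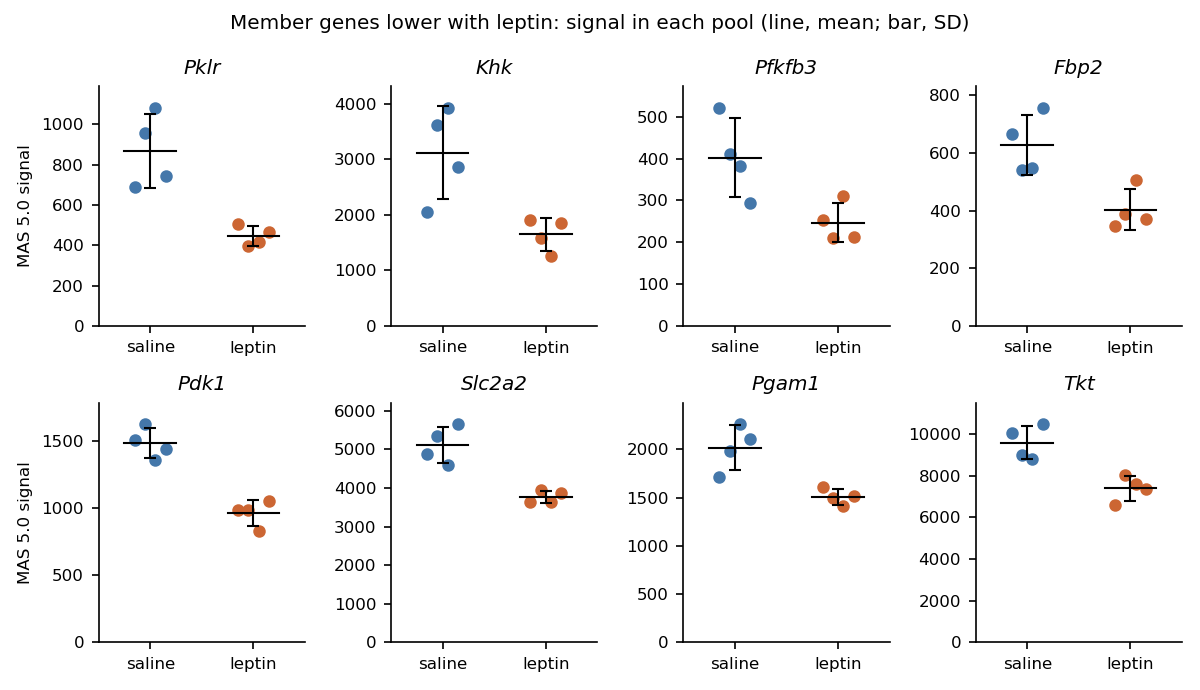
MAS 5.0 signal of each pool, on axes that start at 0, for the 8 genes that fell, with the saline pools on the left and the leptin pools on the right of each panel; points are pools, lines are means and bars are SD (n = 4). The leptin pools lie below the saline pools without overlap in 7 panels, and in the panel of Pfkfb3 the ranges overlap.

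Of the 8 genes that fell, 4 have a promoter with CACGTG or a carbohydrate response element, and these promoters are shown. CACGTG, the E-box that basic helix-loop-helix factors such as USF bind, is in Khk, Fbp2 and Pfkfb3 (and in members that did not pass the test), and the carbohydrate response element, a pair of E-boxes that the glucose-sensing factor ChREBP (Mlxipl) is known to bind, is in Pklr. Each line gives the 250 bases before the start of a transcript, 5′ to 3′ along the gene's strand, from RefSeq (GRCm38.p6), with the motif in capitals.

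Pklr, chr3:89136373-89136622, plus strand: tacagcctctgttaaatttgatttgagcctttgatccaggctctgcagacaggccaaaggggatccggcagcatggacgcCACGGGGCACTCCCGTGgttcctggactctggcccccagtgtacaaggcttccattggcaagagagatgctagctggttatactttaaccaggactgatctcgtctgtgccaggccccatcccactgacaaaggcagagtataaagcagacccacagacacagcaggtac

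Khk, chr5:30921309-30921558, plus strand: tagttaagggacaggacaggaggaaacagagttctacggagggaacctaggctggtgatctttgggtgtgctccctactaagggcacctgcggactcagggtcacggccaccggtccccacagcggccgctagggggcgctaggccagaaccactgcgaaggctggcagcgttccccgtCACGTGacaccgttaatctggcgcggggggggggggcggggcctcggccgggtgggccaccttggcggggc

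Fbp2, chr13:62858401-62858650, minus strand: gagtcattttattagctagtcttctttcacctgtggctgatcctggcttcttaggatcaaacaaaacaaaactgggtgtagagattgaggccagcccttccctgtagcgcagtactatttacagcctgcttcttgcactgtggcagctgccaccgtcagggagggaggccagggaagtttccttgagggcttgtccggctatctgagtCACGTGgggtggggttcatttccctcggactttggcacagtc

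Pfkfb3, chr2:11502091-11502340, minus strand: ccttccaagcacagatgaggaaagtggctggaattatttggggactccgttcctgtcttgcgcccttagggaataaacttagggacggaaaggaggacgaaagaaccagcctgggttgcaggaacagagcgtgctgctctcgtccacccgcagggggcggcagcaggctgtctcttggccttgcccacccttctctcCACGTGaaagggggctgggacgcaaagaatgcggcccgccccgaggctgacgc

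Windows of 300 bases, 250 before and 50 after each annotated start, were searched on both strands, and all 41 genes had at least 1 window. CACGTG was present in 7 of the 62 windows of the members (11.3%) and in 7.15% of all 32851 windows. The 7 windows belong to Khk, Fbp2 and Pfkfb3, which fell, and to Ldha, Pdk2, Pfkfb2 and Pfkm, which did not pass the test. It begins 71 bases before the start in Khk, 42 in Fbp2 and 53 in Pfkfb3. ACGTG, the core of the hypoxia response element, is contained in CACGTG and was present in 24 of the 62 member windows (38.7%) and in 19.6% of all windows; by gene, 20 of the 41 members held it, and so did 4 of the 8 genes that fell (Khk, Fbp2, Pfkfb3 and Pgam1). The carbohydrate response element, searched after the values had been seen, was present in 1 member window, that of Pklr, and in 39 of all windows (0.119%). Several windows of one gene overlap, and a match is a string of letters and not a measured site.

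The transcripts of the regulators themselves did not pass the test. Of 11 transcriptional regulators of these pathways that were tested, 0 rose and 0 fell in the limma fit, with a median log2 difference of 0.06, and 1 was lower at an unadjusted p under 0.05. Mlxipl had a log2 difference of 0.02 (adjusted p = 0.961), and Txnip, a target of the same factor that restrains glucose uptake, had 0.13 (adjusted p = 0.452); both were chosen after their values were seen. Of 12 hypoxia-responsive genes outside glycolysis, 1 fell, the mitochondrial protein gene Higd1a (log2 difference -0.58, SE 0.13, adjusted p = 0.0190). By estimate, 6 of the 12 were lower and 6 higher, and 4 were lower and 2 higher at an unadjusted limma p under 0.05.

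Among the genes of glucose entry, 1 of 5 fell. Slc2a2 encodes GLUT2, the low-affinity glucose transporter of hepatocytes, and it gave 4870, 5343, 4582 and 5647 with saline and 3630, 3940, 3633 and 3874 with leptin. All saline pools were above all leptin pools. The mean went from 5110 ± 476 to 3769 ± 161 (SD, n = 4), a fall of 0.43 on the log2 scale (SE 0.095, adjusted p = 0.0170). The adjusted p was 0.0567 under quantile scaling, 0.0747 under loess scaling, 0.149 with the actin ratio as a covariate and 0.0595 without saline pool 2. Slc2a1, the widespread transporter GLUT1, had a log2 difference of -0.09 (adjusted p = 0.709), with overlapping pools. The hexokinases, which trap glucose in the cell, did not pass the test: Hk1 lay at 791 to 1060 with saline and 980 to 1325 with leptin (log2 difference 0.31, adjusted p = 0.175), Hk2 had -0.23 (adjusted p = 0.530) and Hk3 had 0.29 (adjusted p = 0.503). Of 10 other sugar transporter and hexokinase genes tested with limma, 0 passed, and 0 had an unadjusted p under 0.05.

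In upper glycolysis, 0 of 6 genes passed limma's test in their brightest probe set, with a median log2 difference of -0.16, and 2 (Aldoa and Tpi1) were lower at an unadjusted p under 0.05. The 3 phosphofructokinase genes had overlapping pools and log2 differences of -0.07 for the liver-type subunit Pfkl, 0.16 for the platelet-type Pfkp and 0.21 for the muscle-type Pfkm, with adjusted p-values of 0.516 to 0.814. Aldoa, the general aldolase that splits fructose 1,6-bisphosphate, gave 5194, 4920, 4698 and 5582 with saline and 3761, 4002, 4567 and 4714 with leptin in its brightest probe set. Leptin pool 8 reached just above saline pool 3, and the log2 difference was -0.26 (SE 0.10, adjusted p = 0.146). All 5 Aldoa probe sets had a negative difference, and 2 of them fell, by 0.38 (adjusted p = 0.0394) and 0.49 (adjusted p = 0.0131), without overlap between the pools. The 5 probe sets carry names of the kind that can also detect similar sequences, so the 5 readings are not independent. The same limit holds for the brightest probe sets of Tkt, Pgk1 and Pgd and for some dimmer ones of Pgk1, Pgd, Tpi1 and Ldhb. Tpi1, triose phosphate isomerase, had differences of -0.25 to -0.29 in its 3 probe sets, with adjusted p-values of 0.148 to 0.259, and Aldoc, the brain-type aldolase, had -0.37 (adjusted p = 0.282).

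Of the 3 tested enzymes of fructose 2,6-bisphosphate, the strongest activator of phosphofructokinase, 1 fell, Pfkfb3. Pfkfb3, the isoform whose kinase activity far exceeds its phosphatase activity, gave 521, 412, 381 and 294 with saline and 253, 211, 311 and 212 with leptin. Leptin pool 7 was above saline pool 4, so the groups overlapped. The mean went from 402 ± 93.9 to 247 ± 47.0 (SD, n = 4), a log2 difference of -0.68 (SE 0.19, adjusted p = 0.0490). That call was kept in 10 of 22 alternatives, the adjusted p ranged up to 0.121 without one pool (any but saline pool 4 or leptin pool 7), and the dimmer probe set, at 66 to 138 over all pools, gave the opposite sign (0.31, adjusted p = 0.508). Pfkfb2, the heart-type isoform, had a log2 difference of 0.07 (adjusted p = 0.844), and Pfkfb4 had 0.35 (adjusted p = 0.252).

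Lower glycolysis, from glyceraldehyde 3-phosphate to pyruvate, had 2 falls among 5 tested genes, Pgam1 and Pklr, and a median log2 difference of -0.41. Pgam1, phosphoglycerate mutase, gave 1712, 1985, 2261 and 2109 with saline and 1608, 1493, 1412 and 1522 with leptin, without overlap. Its mean went from 2017 ± 232 to 1509 ± 80.6 (SD, n = 4; log2 difference -0.41, SE 0.11, adjusted p = 0.0417). The adjusted p was 0.123 under quantile and loess scaling, and 0.0600 to 0.102 when any one pool other than saline pool 1 was left out. Pgk1, phosphoglycerate kinase, one of the ATP-forming steps, gave 6626, 8869, 10349 and 9987 with saline and 6263, 6552, 6298 and 7114 with leptin. Saline pool 1 lay within the range of the leptin pools, and the log2 difference was -0.43 (SE 0.13, adjusted p = 0.0637; 0.00413 without saline pool 1). The other 2 Pgk1 probe sets fell: the one at 4140, 5618, 6183 and 5644 with saline and 3717, 3252, 3262 and 3923 with leptin fell by 0.60 (SE 0.13, adjusted p = 0.0146), and the dimmest fell by 0.61 (SE 0.14, adjusted p = 0.0220).

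Gapdh, the enzyme before Pgk1 and a common reference gene, was read on the control probe sets for the 5′ end, the middle and the 3′ end of its transcript, which were left out of the fit. The 5′ probe set gave 9528, 11918, 12449 and 11385 with saline and 8903, 8567, 8344 and 9191 with leptin, and all saline pools were above all leptin pools. The log2 difference was -0.36 for the 5′ end, -0.47 for the middle and -0.36 for the 3′ end. Over the 70 ways to assign 4 of 8 pools, a two-sided exact permutation test gave p = 0.0286, 0.0286 and 0.0571, or 0.0429, 0.0429 and 0.0571 after Benjamini-Hochberg adjustment over the 3 parts; 0.0286 is the smallest value this design allows. The difference was negative under each of 5 scalings, from -0.72 to -0.19. The muscle enolase Eno3, at 105 to 151 with saline and 119 to 167 with leptin, had a log2 difference of 0.15 (adjusted p = 0.710). The neuronal enolase Eno2 gave 60.5, 35.9, 50.3 and 23.9 with saline and 56.4, 106, 58.8 and 36.3 with leptin, with 3 of the 8 pools under background.

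**Figure D3:**
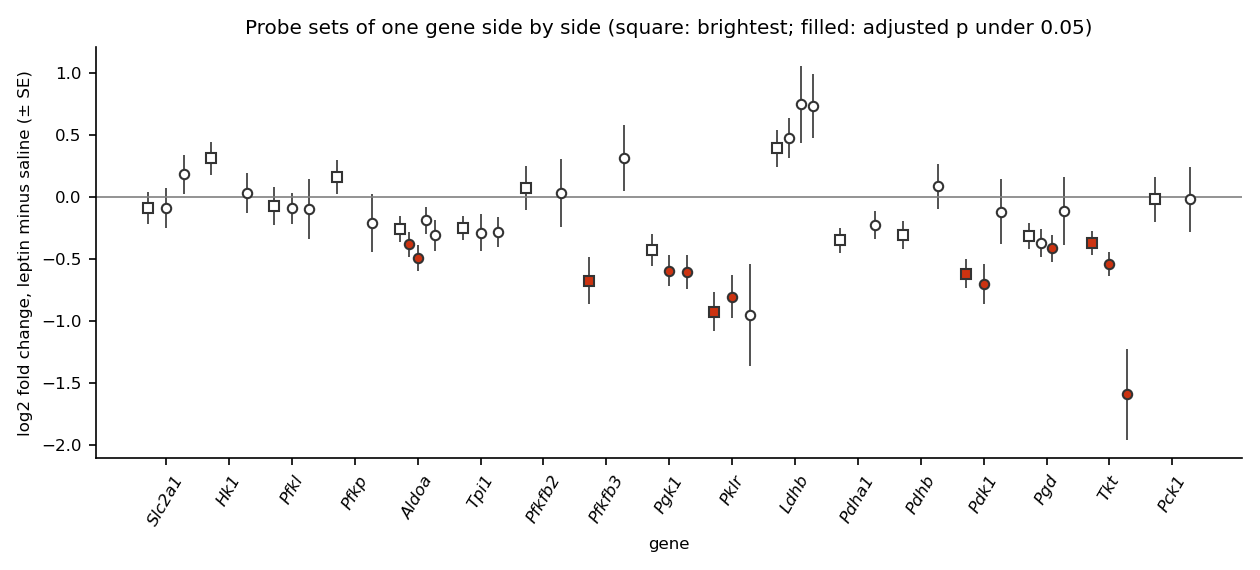
Log2 difference, leptin minus saline, with SE, of every tested probe set of the 17 members that have 2 or more; squares are the brightest probe set of a gene, circles the others, and filled markers passed the test. For Pgk1, Tkt and Aldoa all probe sets lie below 0, for Ldhb all 4 lie above 0, and for Pfkfb3 the 2 probe sets lie on opposite sides.

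Among the 35 members, Ldhb alone was higher with leptin in every pool. Ldhb, the heart-type subunit of lactate dehydrogenase, which interconverts pyruvate and lactate, gave 440, 352, 406 and 335 with saline and 635, 467, 473 and 454 with leptin. Every leptin pool was above every saline pool, but the log2 difference of 0.39 (SE 0.15) had an adjusted p of 0.137. Its other 3 probe sets gave 0.47, 0.74 and 0.73, with adjusted p-values of 0.0922 to 0.172. Ldha, the muscle-type subunit, gave 4294, 6096, 7333 and 6009 with saline and 5847, 5159, 4277 and 6147 with leptin, overlapping throughout (log2 difference -0.13, SE 0.16, adjusted p = 0.644).

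Pyruvate dehydrogenase kinase 1, which inactivates pyruvate dehydrogenase and is a known hypoxia-responsive gene, had one of the steadiest falls. Pdk1 gave 1503, 1622, 1357 and 1438 with saline and 984, 985, 826 and 1055 with leptin. The gap between the groups was wider than the range within either. The mean went from 1480 ± 112 to 962 ± 96.5 (SD, n = 4), a log2 difference of -0.62 (SE 0.11, adjusted p = 0.00668). A second probe set fell by 0.70 (SE 0.16, adjusted p = 0.0191), and a dimmer one, at 133 to 377 over all pools, gave -0.12 (adjusted p = 0.822). The other kinases did not pass the test: Pdk2 had 0.16, Pdk3 -0.18 and Pdk4, the kinase that fasting induces, 0.05 (adjusted p = 0.909).

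Neither tested subunit of pyruvate dehydrogenase passed the test. Pdha1, the catalytic alpha subunit, gave 3448, 3871, 3596 and 4128 with saline and 3135, 2640, 3072 and 2935 with leptin. The pools did not overlap, with a log2 difference of -0.35 (SE 0.099, adjusted p = 0.0511). Pdhb, the beta subunit, had -0.31 (SE 0.11, adjusted p = 0.122), with overlapping pools, and its dimmer probe set had 0.08 (adjusted p = 0.820). In a list of 13 other genes of pyruvate and lactate handling, 1 fell and 1 rose. Pdhx, which anchors the third component of the pyruvate dehydrogenase complex, gave 258, 289, 254 and 311 with saline and 214, 158, 167 and 173 with leptin and fell by 0.63 (SE 0.16, adjusted p = 0.0321). Pck2, the mitochondrial form of phosphoenolpyruvate carboxykinase, gave 361, 283, 226 and 244 with saline and 489, 411, 390 and 425 with leptin and rose by 0.62 (SE 0.16, adjusted p = 0.0369).

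All 3 tested genes of the pentose phosphate pathway had higher signals in every saline pool than in any leptin pool, and 1 of them fell. Tkt, transketolase, gave 10044, 8999, 8811 and 10457 with saline and 6589, 8014, 7593 and 7372 with leptin. Its mean went from 9578 ± 799 to 7392 ± 598 (SD, n = 4), a log2 difference of -0.37 (SE 0.095, adjusted p = 0.0347). Its other 2 probe sets fell too, with log2 differences of -0.54 (SE 0.093, adjusted p = 0.00456) and, in a dim probe set with 1 leptin pool under background, -1.59 (SE 0.36, adjusted p = 0.0206). For the brightest probe set the adjusted p was 0.261 under loess scaling, 0.447 with the actin ratio as a covariate, and 0.0517 to 0.0945 when any one pool other than saline pool 3 was left out.

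Taldo1, transaldolase, gave 1999, 1703, 2067 and 2232 with saline and 1602, 1531, 1545 and 1454 with leptin (log2 difference -0.38, SE 0.11, adjusted p = 0.0531). Pgd, the second NADPH-forming enzyme of the pathway, gave 1611, 1499, 1338 and 1692 with saline and 1139, 1243, 1282 and 1247 with leptin (-0.32, SE 0.11, adjusted p = 0.0986). Neither passed the test in its brightest probe set, though 1 of the 4 Pgd probe sets fell by 0.42 (SE 0.11, adjusted p = 0.0404). Of 6 other genes of the pathway, 0 passed limma's test, and 0 had an unadjusted p under 0.05. Of 7 other genes of glycolysis and fructose breakdown, 0 passed in their brightest probe set. By probe set, 3 of the 17 tested in this list fell, where 3.39% of all tested probe sets fell. Of the 7 genes, 4 were lower at an unadjusted limma p under 0.05. Among them were Gpd1 (log2 difference -0.68, adjusted p = 0.0948) and Tkfc, which phosphorylates the glyceraldehyde formed from fructose (-0.62, adjusted p = 0.150). Both were chosen after their values were seen. In a list of 13 genes of glycogen and sugar nucleotides, 1 fell, Ugp2, which makes UDP-glucose (log2 difference -0.51, SE 0.11, adjusted p = 0.0167). By probe set, 4 of the 20 tested in that list fell.

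Of the 4 glucose-producing enzymes, 1 fell, Fbp2. Fbp2, the muscle form of fructose 1,6-bisphosphatase, gave 665, 542, 547 and 757 with saline and 346, 390, 506 and 371 with leptin. The groups did not overlap, and the mean went from 628 ± 103 to 403 ± 71.0 (SD, n = 4), a log2 difference of -0.63 (SE 0.16, adjusted p = 0.0315). Of 6 skeletal muscle markers, 5 were too dim to be tested, each with at least 3 of the 8 pools under background. The other marker, Ckm, lay above background in every pool, at 132 to 155 with saline and 111 to 229 with leptin (log2 difference -0.02, adjusted p = 0.969). With the actin ratio, which nearly separates the groups, as a covariate the log2 difference of Fbp2 was -0.25 (adjusted p = 0.520). Without any one of saline pools 1 and 4 and leptin pools 5, 6 and 8 the adjusted p was 0.0692 to 0.0906.

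The liver form, Fbp1, gave 7515, 11848, 12691 and 10466 with saline and 10323, 8905, 6426 and 10361 with leptin, overlapping throughout (log2 difference -0.24, SE 0.18, adjusted p = 0.445). Pck1, phosphoenolpyruvate carboxykinase, gave 3863, 5535, 5784 and 4835 with saline and 5569, 5483, 3220 and 5728 with leptin (-0.02, SE 0.18, adjusted p = 0.958). G6pc, glucose 6-phosphatase, which releases free glucose, gave 2636, 4036, 3546 and 2139 with saline and 4235, 3644, 1842 and 3939 with leptin (0.12, SE 0.25, adjusted p = 0.817). None of these 3 separated the groups, and in each, leptin pool 7 was the lowest leptin pool, as it was for the hepatocyte sum. With the actin ratio as a covariate, Fbp1 had a log2 difference of -0.76 and passed the test (adjusted p = 0.0427). With the hepatocyte score as a covariate, it passed as well, at -0.37 (adjusted p = 0.0155), while Pck1 had -0.15 (adjusted p = 0.463) and G6pc -0.03 (adjusted p = 0.945).

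**Figure D4:**
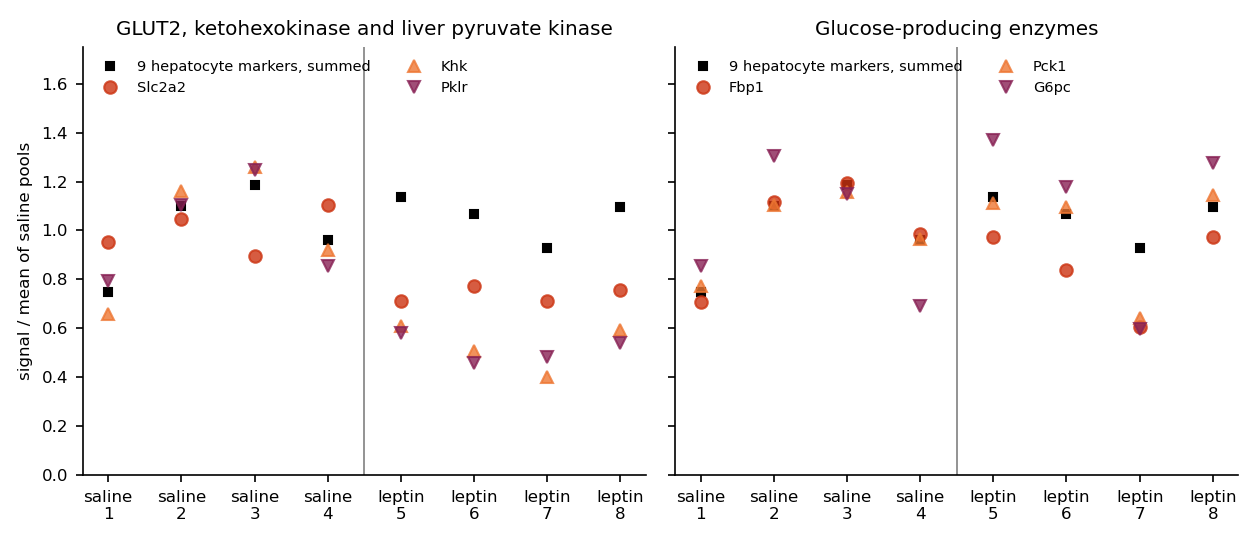
Signal of Slc2a2, Khk and Pklr (left) and of Fbp1, Pck1 and G6pc (right) in each pool, divided by the gene's mean over the 4 saline pools; black squares are the summed signal of 9 hepatocyte markers on the same scale. Slc2a2, Khk and Pklr are lower in the leptin pools without overlap, while Fbp1, Pck1, G6pc and the hepatocyte sum overlap between the groups.

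Isozymes were also compared within each array, as the log2 ratio of one to the other, in 8 pairs with a two-sided exact permutation test over the pools. The ratio of Pdk1 to Pdk2 was lower with leptin by 0.78 on the log2 scale and that of Pdk1 to Pdk4 by 0.67 (exact p = 0.0286 for both, adjusted p = 0.114). The ratio of Pfkfb3 to Pfkfb2 differed by -0.75, that of Hk1 to Hk2 by 0.53 (exact p = 0.0571 for both, adjusted p = 0.114) and that of Ldha to Ldhb by -0.53 (exact p = 0.0857, adjusted p = 0.137). After adjustment over the 8 pairs, 0 passed, in a design whose smallest unadjusted p is 0.0286, and 2 pairs had an unadjusted p under 0.05. The ratios of Pfkl to Pfkp and to Pfkm and of Aldoa to Aldoc differed by -0.29 to 0.11, with exact p-values of 0.457 to 0.600.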

How the data were processed

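The authors deposited one table of MAS 5.0 signal intensity values for 45101 probe sets on 8 one-colour Affymetrix mouse 430 2.0 arrays, made with MAS5 per the submitters' processing notes; scan dates were not given in the sources used here. Each array's 2% trimmed mean was already 250. The 64 control probe sets were left out. Signals were analysed as log2(signal + 8.2), 8.2 being the 10th percentile of all signals, for the 22519 probe sets at or above the median mean signal. Leptin and saline pools were compared with limma 3.58.1 (R 4.3.3; lmFit, eBayes with a mean-variance trend, Benjamini-Hochberg adjustment, threshold 0.05). The fit was tested on simulated data in which 200 probe sets were changed by a known fold. It called 5% of those changed 1.5-fold, 58% of those changed 2-fold and 94% of those changed 4-fold. A gene that did not pass the test can therefore still have changed by 1.5-fold or less. Background was the 95th percentile of 27 unspiked bacterial control probe sets, and the number of arrays limits the precision.

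Probe sets were named from the platform annotation, with symbols updated through RefSeq: 34958 had 1 symbol, 932 several and 9211 none. The members and all gene lists were chosen with earlier results of these data known. Values of every pool are given for members that passed the test, members whose pools do not overlap and the brightest tested member of each arm; other genes were named if they passed, up to 3 a list, apart from Gpd1, Tkfc, Mlxipl and Txnip, which did not pass and were chosen after their values were seen. Gapdh, read from control probe sets, and within-array isozyme ratios had an exact permutation test over the pools; 1 planned pair, of enolases, had no values. Pools were taken as separate groups of mice, because each treatment had 12 mice and 4 pools of 3 gallbladders. The sample titles do not state it. Alternatives were other scalings, pseudocounts of 1 and 32, no filter, a 75th percentile filter, other variance models, array weights, the actin ratio as a covariate, the dimmest probe set of a gene and each pool left out. Centring on the tested probe sets, the hepatocyte score as a covariate and the carbohydrate response element search were added after the data had been seen. Promoter windows came from RefSeq (GRCm38.p6).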

Additional observations from a re-analysis of the deposited data

Results flagged for a closer look

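Among the 70 groups of 4 pools checked, 2 held a pool that stood apart from the other 3 by Dixon's gap ratio (95% critical value); chance alone flags about 1 group in 20. Leptin pool 5 was the highest leptin pool for Ldhb, at a signal of 635 against 454 to 473 in the other 3 (ratio 0.875). Leptin pool 7 was the lowest leptin pool for Pck1, at 3220 against 5483 to 5728 (ratio 0.924).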

How the results depend on the processing

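Of the 8 genes that fell, Pklr and Pdk1 passed the test in 21 of 22 alternatives, Khk in 20, Slc2a2 in 17, Fbp2 in 15, and Pgam1, Tkt and Pfkfb3 in 10 each. The main count of 8 was 5 under quantile scaling, loess scaling and no filter, 4 with the actin ratio as a covariate, 2 without the mean-variance trend, 15 with median centring and 4 to 7 with one pool left out. The members' median log2 difference of -0.23 was -0.13 under quantile scaling, -0.11 under loess, -0.47 with median centring, -0.31 with centring on tested probe sets, -0.26 with the 75th percentile filter, -0.27 with the actin ratio, -0.12 with the dimmest probe sets, and -0.26 (without saline pool 1) to -0.15 (without saline pool 3) with one pool left out. Over the array, 1561 calls (798 higher, 763 lower) became 3992 (406 and 3586) with median centring and 654 (249 and 405) with the actin ratio. Higher calls were 462 with the 75th percentile filter, and lower calls were 1322 with centring on tested probe sets and 389 without the trend. With one pool left out, total calls ran from 878 (without saline pool 2) to 1436 (without leptin pool 7), higher calls from 489 to 718 and lower calls from 389 to 718. Pfkfb3 reversed sign with its dimmest probe set (0.31, adjusted p = 0.508). The cause was not tested. The isozyme differences moved by less than the spread between pools. No paired analysis was possible because the pools share no replicate numbers between groups. Signal near background limits what dim probe sets, such as that of Eno2, could show.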

Other observations

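The 5 tested genes outside the set whose log2 signals followed those of Pklr most closely over the 8 pools were Hspb8 (Pearson r = 0.994), Emc4 (0.983), Cidea (0.981), Mmgt1 (0.976) and Hsd17b10 (0.975). The 8 pools share the treatment difference, so these coefficients describe it as well as likeness within a group, and no test was made of them. Cidea, a lipid droplet protein gene, fell by 2.41 on the log2 scale (SE 0.41, adjusted p = 0.00435 in the limma fit), and Hspb8, a small heat shock protein gene, fell by 0.72 (SE 0.14, adjusted p = 0.0100).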
